A study of Mus musculus with 12 samples.

Results

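The angiopoietin and Tie genes are the secreted ligands Angpt1, Angpt2, and Angpt4, the endothelial receptors Tek (Tie2) and Tie1, and a pair of angiopoietin-like genes, Angptl4 and Angptl2. They were taken by name, 7 genes of the 54119 with summed counts, and all 7 passed the filter on low counts. RNA was measured in cerebral vessels, the blood vessels separated from forebrain tissue, of C57BL6 wild type mice 2 to 3 months old. Besides a PBS group there were LPS groups at 15 and 30 min and at 4 h, 4 groups in all. LPS (lipopolysaccharide, a component of the bacterial outer membrane that sets off systemic inflammation) was injected intraperitoneally at 10 mg/kg, and the time is that from injection to collection. Each group had 3 libraries, and each library pooled the vessels of 1 male and 1 female mouse. How long after injection the PBS mice were collected is not given in the sources used here.

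Angpt1 binds the receptor tyrosine kinase Tie2 on endothelial cells and activates it, and is made mainly by the mural cells around them. Angpt2 is made by the endothelial cells themselves, is stored in their Weibel-Palade bodies, and competes with Angpt1 for Tie2, so that it can act as an antagonist. Tie1 has no direct angiopoietin ligand and modulates Tie2 as a partner in the same complex, and the pathway is known for holding vessels quiescent and their junctions tight. Angptl4 and Angptl2 resemble angiopoietins in structure but do not bind the Tie receptors: Angptl4 inhibits lipoprotein lipase, and Angptl2 is a secreted ligand of integrins.

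Libraries held 18.3 to 25.9 M estimated fragments. Levels are given as CPM, fragments relative to the library's total after scaling with TMM factors, which set libraries of different composition on 1 scale, and as TPM, which also divides by transcript length and was used to compare genes within a library. Markers of endothelial cells summed to 7102 to 10550 CPM and those of pericytes to 3426 to 3913 CPM across all libraries. Markers of cells outside the vessel wall were also present. Those of neurons summed to 339 to 351 CPM in PBS and 507 to 520 at 15 min. Those of astrocytes summed to 405 to 438 in PBS, 271 to 296 at 15 min, and 539 to 575 at 4 h. Across all libraries oligodendrocyte markers summed to 318.5 to 433.9 CPM and microglia markers to 64.4 to 96.6. The part of these cells in the levels of the 7 genes was not tested. Sex-linked genes were not in one balance across groups, although every library is labelled as an equal pool: Xist, an RNA made in female cells, lay at 254 to 371 CPM in PBS, 31.5 to 108 at 15 min, 11.6 to 20.9 at 30 min, and 125 to 184 at 4 h, while 4 Y-linked genes summed to 113 to 151, 181 to 210, 225 to 228, and 275 to 279 CPM. These levels differed with the groups, and in TMM-scaled CPM both were higher at 4 h than at 30 min. Whether the share of each sex in the pools differed was not tested, and any effect of it cannot be told apart from that of LPS.

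A change was called past the threshold when edgeR's test against a change of at most 1.5-fold gave an adjusted p below 0.05 over all 19150 genes tested. At LPS 15 min 1 of the 7 genes passed, Angpt4, which was lower; 0.872% of all genes passed as lower there and 3.31% as higher. At LPS 30 min 1 passed, Angptl4, which was higher, where 3.78% of all genes passed as higher and 0.799% as lower. At LPS 4 h 6 of the 7 passed, 2 higher (Angpt2 and Angptl4) and 4 lower (Angpt1, Angpt4, Tek, and Angptl2), beside 19.0% of all genes higher and 13.8% lower. In DESeq2 4 of the 7 passed there. At 4 h the 7 genes had a median log2 change of -0.73, against -0.0098 over all genes tested. Without a fold limit 6, 4, and 7 of the genes passed at the successive times, where 38.6%, 36.9%, and 68.5% of all genes did. Libraries of LPS and PBS did not overlap in CPM for 6, 6, and 7 of the 7, beside 49.3%, 46.7%, and 70.9% of all genes, so that lack of overlap alone said little, and least at 4 h. The 3 comparisons share the PBS libraries.

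**Figure D1:**
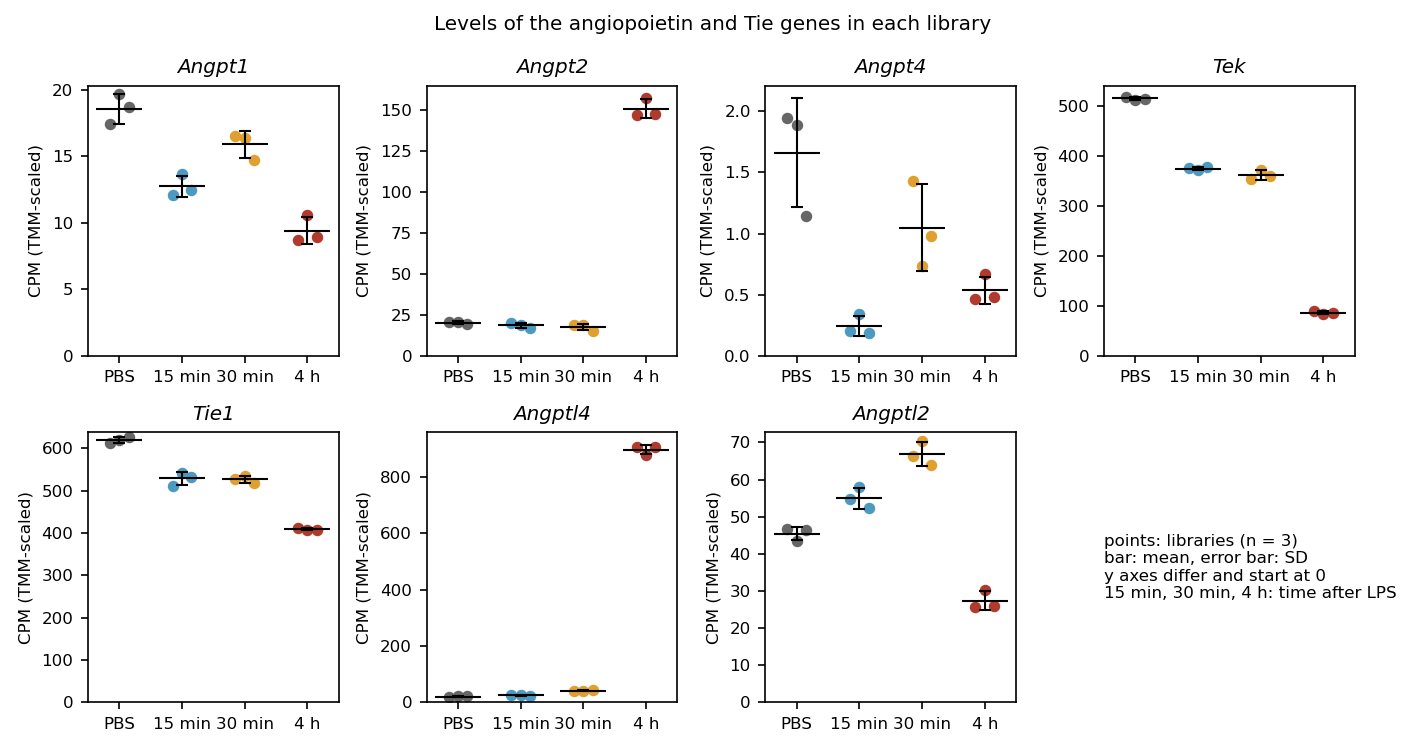
CPM (TMM-scaled) of each of the 7 genes in the 12 libraries; points are libraries, the bar is the group mean and the error bar the SD (n = 3), and each panel has its own axis from 0. Angpt2 and Angptl4 lay far above the other groups at LPS 4 h, Tek fell from about 516 to 86.4 CPM, and Angpt4 was lowest at LPS 15 min.

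Angpt1, the Tie2 agonist, lies on chr15:42424723-42676977 (GRCm38, minus strand). It was at 17.4, 19.7, and 18.7 CPM in PBS, 12.1, 13.6, and 12.5 at LPS 15 min, 16.6, 16.4, and 14.7 at LPS 30 min, and 8.71, 10.6, and 8.95 at LPS 4 h. Every LPS library was below every PBS library, and the 4 h libraries were the lowest. Angpt1 fell at 4 h by 0.98 on the log2 scale (SE 0.102, adjusted p = 3.7e-04), a level 1.97-fold lower than in PBS. At 15 min its difference from PBS was -0.55 (SE 0.0915) and at 30 min -0.23 (SE 0.0908), and neither passed (adjusted p = 1.0 for both). Markers of smooth muscle cells, which like pericytes are mural cells, summed to 2530 to 2573 CPM in PBS. At the successive times they summed to 1633 to 1657, 2312 to 2362, and 2442 to 2496. Those of pericytes summed to 3708 to 3781 CPM in PBS, then to 3887 to 3913, 3618 to 3633, and 3426 to 3537. Markers of fibroblasts summed to 505 to 536 CPM in PBS, 356 to 376 at 15 min, 427 to 438 at 30 min, and 336 to 351 at 4 h, the same order of groups as Angpt1. The part of these shifts in the levels of Angpt1 was not tested. In bulk RNA, fewer cells of a type and less RNA per cell cannot be told apart. Angpt1 shares 737 of its 5205 exon bases with an antisense gene, Gm17473, which held at most 32 fragments in a library, and the unstranded kit cannot assign reads of that stretch to a strand.

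Angpt2, the Tie2 ligand stored in endothelial granules, lies on chr8:18690263-18741562 (minus strand), inside Mcph1, with which it shares 0 exon bases. It was at 20.98, 20.4, and 19.2 CPM in PBS, 20.2, 18.7, and 16.8 at 15 min, 18.9, 18.7, and 15.2 at 30 min, and 147, 158, and 148 at 4 h. The 4 h libraries stood alone, and those of 15 min overlapped with PBS. Angpt2 rose 7.47-fold at 4 h (log2 fold change 2.90, SE 0.0672, adjusted p = 9.3e-20). At 15 and 30 min its differences from PBS were -0.12 (SE 0.0762) and -0.20 (SE 0.0785), neither past the threshold (adjusted p = 1.0 for both). The whole rise thus fell between 30 min and 4 h, a step of 3.10 (SE 0.0699, adjusted p = 5.6e-20). Mcph1, a cell cycle and DNA repair gene, was at 4.14 CPM in PBS and 7.46 at 4 h, and its difference of 0.84 (SE 0.180) did not pass (adjusted p = 0.072).

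As a description within each library, Angpt2 had 1.74, 1.52, and 1.40 times the TPM of Angpt1 in PBS. The ratio was 2.00 to 2.31 at 15 min, 1.26 to 1.62 at 30 min, and 19.1 to 23.4 at 4 h. The 4 h ratio therefore rested on both a higher Angpt2 and a lower Angpt1, and the 30 min ratios overlapped with those of PBS. TPM of Angpt2 includes a processed transcript of 652 bases, not annotated as protein coding, at a mean of 1.95 TPM in PBS. At 4 h it was at 6.33 TPM, on 38 fragments, in the library with the highest ratio and at 0 in that with the lowest.

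Angpt4, a further Tie2 ligand and the least abundant of the 7 genes, lies on chr2:151911210-151945337 (plus strand). Its fragments numbered 52, 56, and 30 in the PBS libraries, 6, 8, and 5 at 15 min, 33, 17, and 22 at 30 min, and 6, 10, and 7 at 4 h. The 15 min and the 4 h libraries lay below every PBS library, and those of 30 min overlapped with PBS. Angpt4 fell 6.78-fold at 15 min (log2 fold change -2.76, SE 0.428, adjusted p = 3.9e-04) and 3.07-fold at 4 h (-1.62, SE 0.420, adjusted p = 0.012), and was 0.66 (SE 0.364) below PBS on the log2 scale at 30 min, which did not pass (adjusted p = 1.0). Its level at 30 min was above that at 15 min by 2.10 (SE 0.445, adjusted p = 0.012), a call lost in DESeq2 (adjusted p = 0.070), in limma with 1 or 10 added (0.077 and 0.61), and without LPS 15 min replicate 1 or 3 (0.059 each) or LPS 30 min replicate 1 (0.081). At 4 h the call was lost in DESeq2 (adjusted p = 0.10) and in limma with 10 added (0.095). Counts of Angpt4 at 15 min and 4 h were at most 10, the filter's minimum count, so it entered the test through the PBS and 30 min libraries. In the fit without the filter the calls against PBS at 15 min and 4 h both held. Levels of Acta2, the smooth muscle actin, were 1018, 604, 888, and 921 CPM in PBS and at the successive times. It is 1 of the 6 smooth muscle markers whose sums are given with Angpt1. At 15 min 3 of these 6 passed as lower, Acta2 among them. At 4 h the markers parted: 1 passed as lower, Lmod1 (-1.68), and 1 as higher, Des (0.69), while Acta2 did not pass. Summed platelet markers were 35.3 to 40.1 CPM in PBS, then 22.8 to 24.6, 35.2 to 35.7, and 49.6 to 57.1. The part of these in the falls of Angpt4 was not tested.

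Tek, which encodes Tie2, lies on chr4:94739289-94874976 (plus strand). It was at 519, 513, and 515 CPM in PBS, 376, 372, and 378 at 15 min, 354, 373, and 360 at 30 min, and 89.5, 84.0, and 85.8 at 4 h. Groups of LPS and PBS did not overlap at any time, while those of 15 and 30 min overlapped with each other. Tek fell 5.97-fold at 4 h (log2 fold change -2.58, SE 0.0294, adjusted p = 1.4e-25). At 15 and 30 min it was below PBS by less than the threshold, at -0.46 (SE 0.0251) and -0.51 (SE 0.0252), with adjusted p = 1.0 in the 1.5-fold test and 9.7e-13 and 1.1e-13 without a fold limit. Between 30 min and 4 h it fell by 2.07 (SE 0.0296, adjusted p = 5.9e-23). Endothelial markers did not move as 1 group at 4 h: of 9 tested, 3 were higher and 4 lower, with Cdh5, the junctional VE-cadherin, at 1.96 (SE 0.0215), Cldn5, a tight junction protein, at -2.31 (SE 0.0224), and Emcn, a sialomucin of capillaries and veins, at -0.09 with no call. Their summed level was 7102 to 7177 CPM at 4 h against 9119 to 9418 in PBS, that of 6 arterial markers was 542 to 562 against 1028 to 1067, and that of 6 venous markers was 12750 to 12960 against 1784 to 1860. The venous markers did not move together either: 2 were higher, Lcn2 (6.20 CPM in PBS and 10331 at 4 h) and Ackr1, and 3 were lower. The part of these shifts in the fall of Tek was not tested.

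Tie1, the co-receptor, lies on chr4:118471191-118490061 (minus strand). It was at 612, 619, and 626 CPM in PBS, 512, 542, and 533 at 15 min, 526, 535, and 517 at 30 min, and 411, 408, and 408 at 4 h. The order of groups was that of Tek, with 15 and 30 min overlapping, but the steps were smaller. At 4 h its log2 fold change of -0.60 (SE 0.0249) was close to the 1.5-fold limit itself and did not pass (adjusted p = 0.29), whereas without a fold limit it did (5.9e-16). The 1.5-fold test passed in the fits without the filter on low counts (-0.65, adjusted p = 0.017), on only the groups compared (-0.63, 0.028), and with a transcript length offset (-0.64, 0.030). At 15 and 30 min the differences were -0.23 (SE 0.0242) and -0.23 (SE 0.0243), both at adjusted p = 1.0. Within each library Tek had 0.757 to 0.787 of the TPM of Tie1 in PBS, 0.645 to 0.673 at 15 min, 0.618 to 0.642 at 30 min, and 0.194 to 0.206 at 4 h, so that the receptors left their PBS proportion at each time, without overlap.

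**Figure D2:**
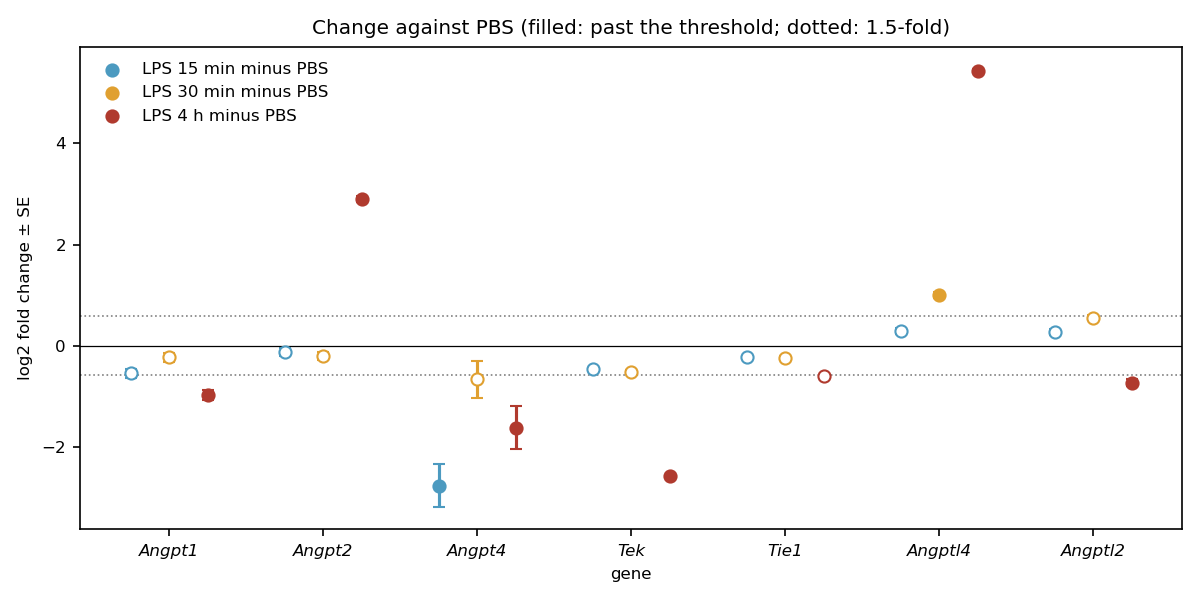
Log2 fold change against PBS (y axis) of each gene at the 3 times after LPS, with the SE of the fit; filled points passed the threshold and dotted lines mark 1.5-fold. Angptl4 reached 5.43 and Angpt2 2.90 at 4 h, Tek fell to -2.58, and Tie1 at -0.60 lay at the dotted line.

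For the members with the steepest falls at 1 time, Tek at 4 h and Angpt4 at 15 min, RefSeq gives a promoter (GRCm38.p6), and the 250 bases before each start are shown because the levels of both moved with LPS. They are chr4:94739039-94739288 and chr2:151910957-151911206, both on the plus strand, and capitals mark the motifs found.
Tek: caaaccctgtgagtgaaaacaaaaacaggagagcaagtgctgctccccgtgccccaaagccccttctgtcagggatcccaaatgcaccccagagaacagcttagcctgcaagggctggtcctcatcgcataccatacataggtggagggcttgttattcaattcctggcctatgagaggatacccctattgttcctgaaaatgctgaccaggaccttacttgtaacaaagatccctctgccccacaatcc
Angpt4: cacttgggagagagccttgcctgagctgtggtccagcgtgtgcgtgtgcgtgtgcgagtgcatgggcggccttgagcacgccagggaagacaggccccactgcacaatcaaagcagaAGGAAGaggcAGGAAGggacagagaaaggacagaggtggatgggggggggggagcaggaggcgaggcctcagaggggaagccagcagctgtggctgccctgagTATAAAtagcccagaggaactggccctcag
The Angpt4 stretch held the ETS core AGGAAG at 133 and 123 bases before the start and the TATA box letters TATAAA at 30 bases before it, while the Tek stretch held none of the letters searched. In windows of 300 bases, which run 50 bases past the start, AGGAAG on either strand was in 35.4% of 32851 mouse promoters and TATAAA in 13.6%. Tek's window added 1 match, the GATA letters AGATAA at 37 bases after the start (11.2% of promoters), and those of Tie1 and Angptl2 held AGGAAG at 219 bases before and 34 after, and at 110 bases before, the start. The other letters searched, on both strands, were CCGGAAG (ETS), TGTTTAC (FOXO), GGANTTTCC (NF-kB), TGACTCA (AP-1), AGGTCA (PPAR half-site), and ACGTG (hypoxia response element), and none was in these 4 windows. RefSeq promoters were matched for 4 of the 7 genes.

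Angptl4, the lipoprotein lipase inhibitor, lies on chr17:33773750-33781830 (minus strand) and had the largest change of the 7 genes. It was at 19.2, 22.2, and 21.1 CPM in PBS, 26.1, 26.5, and 24.0 at 15 min, 42.3, 39.4, and 43.8 at 30 min, and 906, 879, and 908 at 4 h. Each group lay above the one before it with no overlap. Angptl4 rose 2.00-fold at 30 min (log2 fold change 1.00, SE 0.0515, adjusted p = 2.3e-07) and 43.0-fold at 4 h (5.43, SE 0.0445, adjusted p = 3.8e-29), after a difference of 0.29 (SE 0.0544) at 15 min that did not pass (adjusted p = 1.0). The step from 30 min to 4 h was 4.42 (SE 0.0415, adjusted p = 1.3e-27). That from 15 to 30 min, 0.71 (SE 0.0502), passed narrowly (adjusted p = 0.046) and was lost with the replicate block (0.063), in DESeq2 (0.19), in limma with 1 or 10 added (0.74 and 1.0), with library size only (1.0), with only the groups compared (0.10), with the transcript length offset (0.18), and without LPS 15 min replicate 1 (0.058) or 3 (0.30) or LPS 30 min replicate 1 (0.12) or 3 (0.23).

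Salmon divided the fragments of Angptl4 mainly between a protein-coding transcript of 3308 bases and one of 1859 bases annotated to nonsense-mediated decay, and the exon junction that parts them is shown because most fragments were given to the second. All 1859 bases of the second lie in exons of the first, which has 287 more at the 5′ end, 1158 more at the 3′ end, and 4 more at the start of exon 3. The last 12 bases of exon 2 (chr17:33780783-33780893) and the first bases of exon 3 (chr17:33780530-33780647 and chr17:33780530-33780643) read as follows in GENCODE M21, with the 4 bases in capitals.
Protein-coding: cttcagagccagATAGacctcttggccc
Nonsense-mediated decay: cttcagagccagacctcttggccc
Without these 4 bases the annotated reading frame stops after 21 bases of exon 3. The decay transcript was given 53.8% to 71.4% of the fragments in PBS, 70.5% to 75.9% at 15 min, 69.0% to 74.3% at 30 min, and 64.7% to 66.3% at 4 h, and the protein-coding one 27.7% to 46.0%, 24.1% to 28.2%, 25.1% to 30.7%, and 32.7% to 34.3%. The shares at 4 h lay within the range of PBS. Within PBS the protein-coding transcript was at 3.92 ± 1.22 TPM (SD, n = 3) and the other at 12.3 ± 0.919, and within the 4 h group they were at 80.5 ± 3.58 and 296 ± 4.86, so that the decay transcript had the higher TPM in both groups. Which transcript a fragment came from is an estimate wherever it does not cross that junction or reach either longer end.

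**Figure D3:**
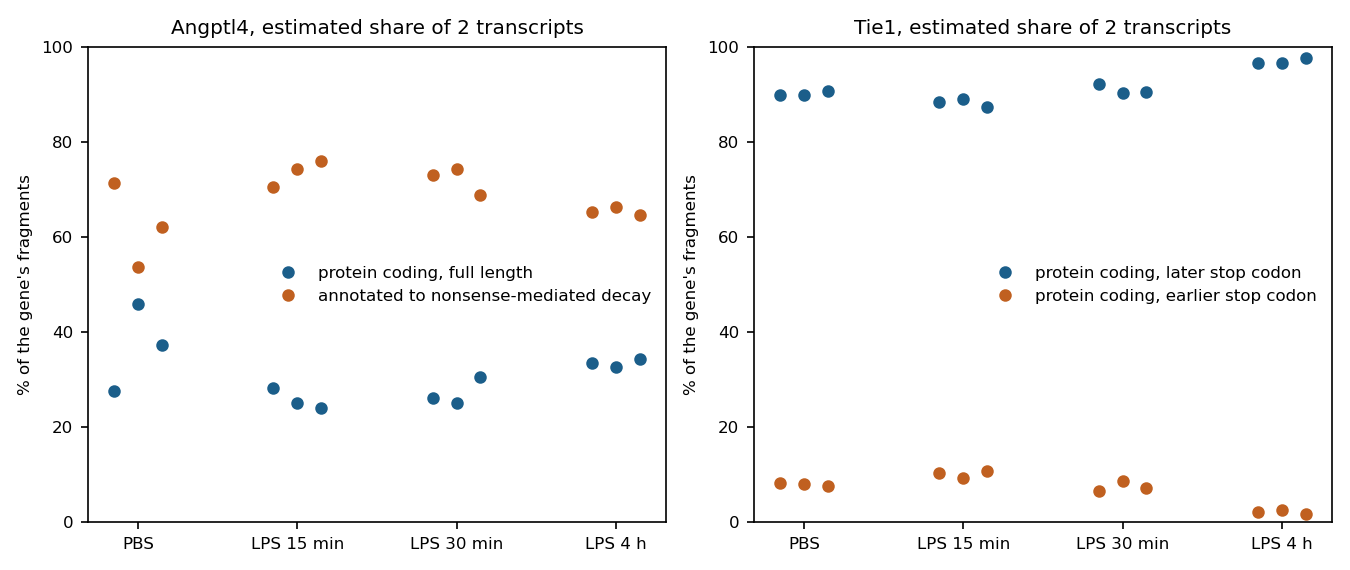
Estimated share of a gene's fragments (y axis, %) given to 2 transcripts of Angptl4 (left) and of Tie1 (right) in each library of the 4 groups. The transcript of Angptl4 annotated to nonsense-mediated decay holds 53.8% or more of the fragments in every library. The minor Tie1 transcript, of 4234 bases, drops from about 8.03% in PBS to 2.20% at 4 h. The legend names the Tie1 transcripts by their stop codons, which were not examined here.

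For Tie1 a minor protein-coding transcript, of 4234 bases, held 7.64% to 8.38% of the fragments in PBS, 9.38% to 10.8% at 15 min, 6.56% to 8.72% at 30 min, and 1.70% to 2.62% at 4 h. The main transcript held 89.9% to 90.8% in PBS and 96.6% to 97.7% at 4 h. The minor share at 4 h lay below that of every other library. Among the 3 protein-coding transcripts of Tek, the main one held 64.7% to 74.4% in PBS and 64.4% to 74.4% at 4 h, so that the groups overlapped. Angpt1, Angpt2, and Angptl2 each had over 90% of their fragments on 1 transcript in every library, and Angpt4 has 1 annotated transcript.

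Angptl2, a ligand of integrins and of the inhibitory receptor Pirb, lies on chr2:33216069-33247717 (plus strand), inside Ralgps1, with which it shares 0 exon bases. It was at 46.7, 43.4, and 46.3 CPM in PBS, 54.7, 57.9, and 52.4 at 15 min, 66.3, 70.4, and 63.9 at 30 min, and 25.8, 30.3, and 25.96 at 4 h. Its libraries were above PBS at both early times and below it at 4 h, with no overlap. The differences of 0.27 (SE 0.0566) and 0.56 (SE 0.0564) at 15 and 30 min did not pass (adjusted p = 1.0 for both), though both did without a fold limit (4.5e-04 and 3.7e-08). Angptl2 fell 1.66-fold at 4 h (-0.73, SE 0.0662, adjusted p = 0.018), a call lost in DESeq2 (0.18) and without LPS 4 h replicate 1 (0.081) or 3 (0.085). Against 30 min the fall at 4 h was 1.29 on the log2 scale (SE 0.0650, adjusted p = 2.5e-10). Ralgps1 was at 23.6 CPM in PBS and 35.4, 22.8, and 28.8 CPM at the successive times, none past the threshold (adjusted p = 1.0 each).

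Between LPS 30 min and LPS 15 min 2 of the 7 genes passed, both higher (Angpt4 and Angptl4), where 2.69% of all genes were higher and 1.96% lower. Between LPS 4 h and LPS 30 min 4 passed, Angpt2 and Angptl4 higher and Tek and Angptl2 lower, where 16.9% of all genes were higher and 11.8% lower. Angpt1 was just outside, at -0.75 (SE 0.104, adjusted p = 0.062), and passed without LPS 30 min replicate 3 (0.031) or LPS 4 h replicate 2 (0.018).

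In TPM, Tie1 at 247 ± 0.323 (SD, n = 3) and Tek at 191 ± 3.95 led the PBS libraries, followed by Angptl2 (23.2), Angptl4 (16.8), Angpt2 (11.1), Angpt1 (7.19), and Angpt4 (1.22), and no neighbours in this order overlapped. The order was the same at 15 min. At 30 min Angptl4 (28.9) and Angptl2 (27.5) came next after the receptors and overlapped. At 4 h Angptl4 led at 405, followed by Tie1 (86.3), Angpt2 (40.5), Tek (17.1), Angptl2 (7.29), Angpt1 (1.98), and Angpt4 (0.208), again with no overlap between neighbours. Tek thus lay far above its ligand Angpt2 in PBS and below it at 4 h. TPM of a gene sums its transcripts, and Salmon gave most of that of Angptl4 to the transcript annotated to nonsense-mediated decay. The protein-coding transcript of Angptl4 was at 76.4 to 82.7 TPM at 4 h, below the total of Tie1 at 84.9 to 88.0. In PBS it was at a mean of 3.92, below the total of Angpt1 at 7.19. TPM sums to a constant in each library and carries no TMM scaling, so these values give the order within a group and not a change between groups.

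**Figure D4:**
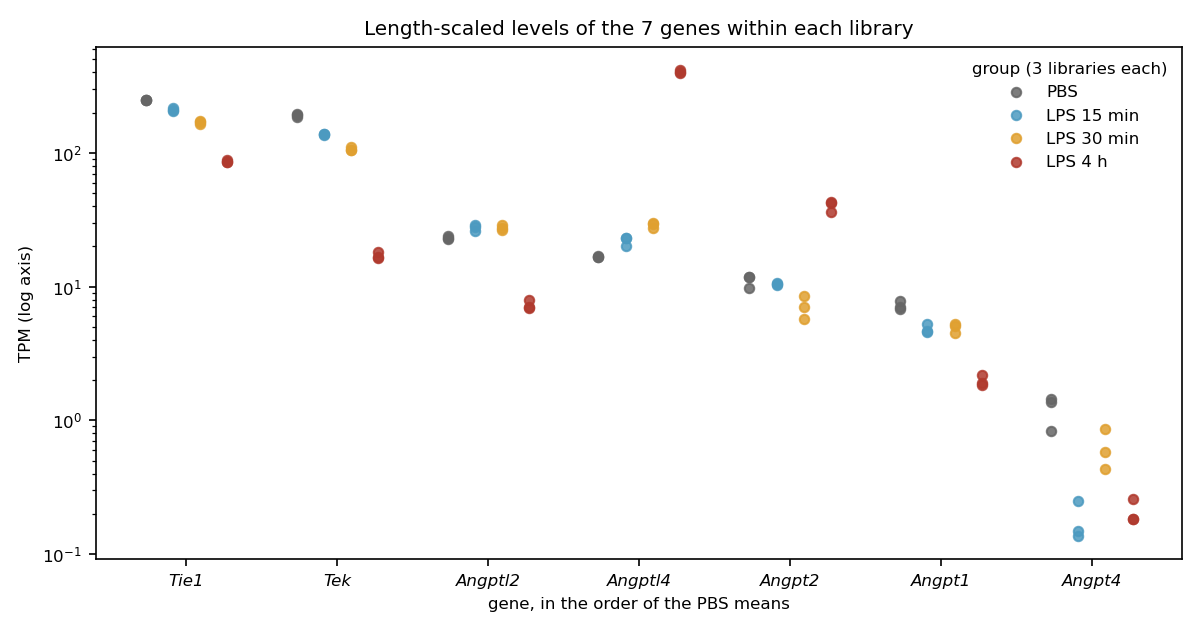
TPM (log axis) of the 7 genes, in the order of their PBS means, with 1 point for each of the 3 libraries of each group. Tie1 and Tek led in PBS at about 247 and 191, and at 4 h Angptl4 at 405 lay above all others and Angpt2 above Tek. Each value sums the transcripts of a gene, most of it for Angptl4 from that annotated to nonsense-mediated decay.

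The list counts at 4 h stand beside the 19.0% of all genes called higher and 13.8% called lower. Those at 15 min stand beside 3.31% higher and 0.872% lower, and those at 30 min beside 3.78% and 0.799%. Proteins that act on the Tie receptors were called at 4 h in 6 of 8 cases, 5 higher and 1 lower (median log2 fold change 1.08). The lower one was Ptprb, the endothelial phosphatase VE-PTP that acts on Tie2, at 1587 CPM in PBS and 325 at 4 h (log2 fold change -2.29, SE 0.0305). The highest were the integrin subunits Itga5 (2.30, SE 0.0387) and Itgb3 (1.78, SE 0.109) and the membrane protease Mmp14 (1.40, SE 0.0612). Adam17, a sheddase of cell surface proteins, and Itgav also rose. At 15 min 2 of the 8 were lower, Mmp14 (-0.96) and Itgb3 (-1.09), so that both were below PBS early and above it at 4 h. Svep1, an extracellular ligand of Tie1, was at 4.96 CPM in PBS and 3.94 at 4 h and did not pass.

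Of 18 genes that carry the signal of Tie2 inside the cell, 6 were higher and 3 lower at 4 h, with a median of 0.42. Tnip2, an inhibitor of NF-kB that binds Tie2 (1.18, SE 0.0539), and the scaffold Iqgap1 (1.15, SE 0.0258) were among those that rose. The adaptors Grb7 (-3.51, SE 0.161) and Grb14 (-2.29, SE 0.0839) and the endothelial nitric oxide synthase Nos3 (-1.13, SE 0.0291) fell. Akt1, the main endothelial Akt kinase, was at 195 CPM in PBS and 152 at 4 h and did not pass. In edgeR's 1.5-fold test 0 of the 18 passed at 15 or 30 min, with 0 at an unadjusted p below 0.05 at either time and 0 in DESeq2.

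Among 10 transcription factors known to act on Tek or Angpt2, 7 were higher and 1 lower at 4 h (median 1.01). Hif1a, the inducible hypoxia factor (3.30, SE 0.0297), and the ETS factors Elf1 (2.53, SE 0.0458) and Elf2 (2.10, SE 0.0395) rose most, while Gata2, an endothelial GATA factor, fell (-1.19, SE 0.0368). Foxo1, which drives Angpt2 transcription and is restrained by Akt, was at 76.3 CPM in PBS, 49.0 at 15 min, 51.1 at 30 min, and 129 at 4 h and passed at 4 h (0.76, SE 0.0535). Klf2, a factor of quiescent endothelium, was higher at all 3 times (1.79, 1.64, and 0.66). Of 9 genes of Weibel-Palade bodies 2 were higher and 4 lower at 4 h: Selp, the leukocyte adhesion receptor P-selectin, went from 0.672 to 1129 CPM, the granule membrane protein Cd63 rose (0.76), and Vwf (-0.71), a cargo protein, and Rab3d (-1.93), Rab27a (-1.03), and Sytl4 (-1.02), of granule transport and release, fell. The others did not pass: the cargo peptide gene Edn1 was at 0.55, and Myrip and Rab3b, of the release machinery, were at -0.43 and -0.97.

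**Figure D5:**
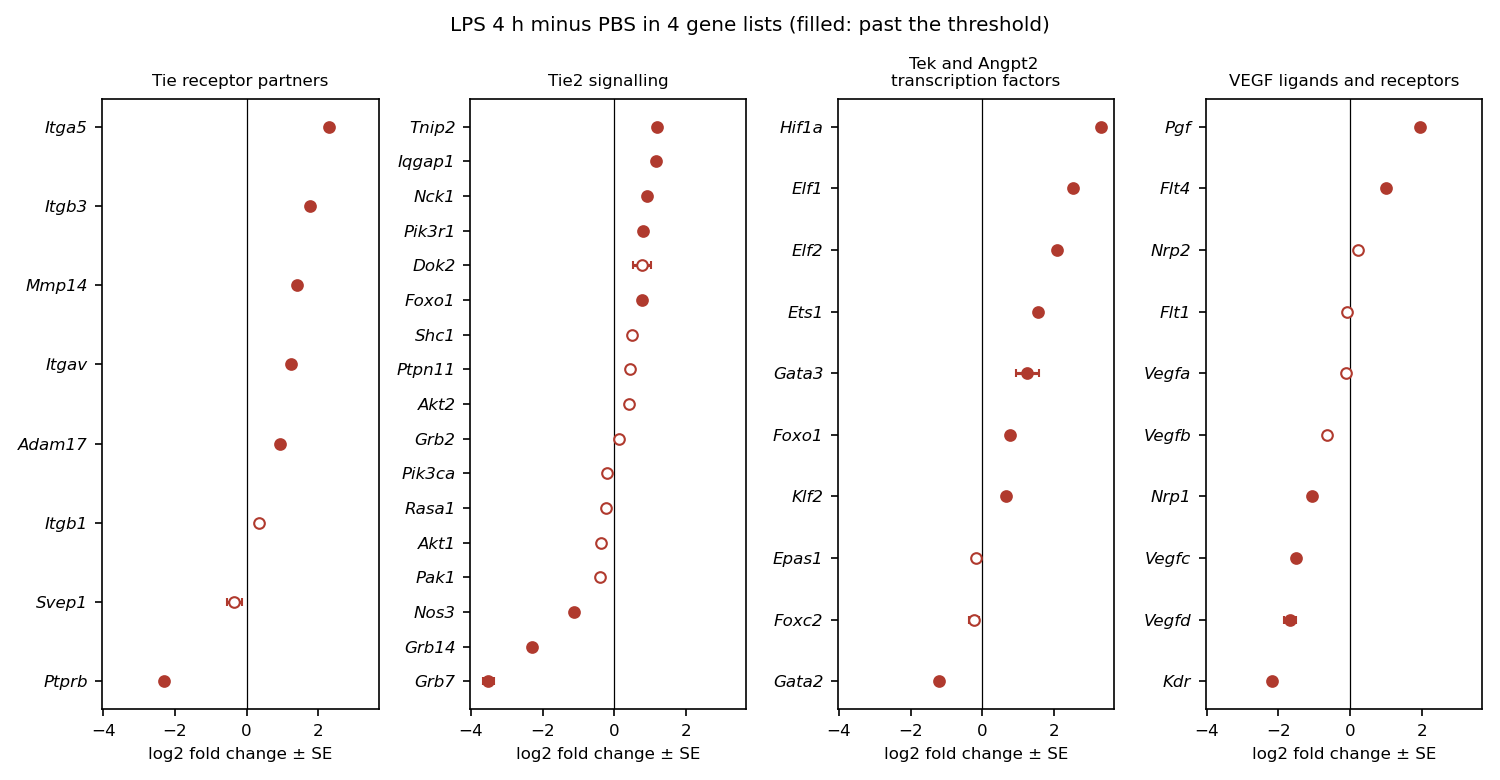
Log2 fold change at LPS 4 h minus PBS (x axis, with the SE of the fit) of genes of 4 lists; filled points passed the threshold. Ptprb, Grb7, Grb14, and Kdr lie farthest to the left, at -2.29, -3.51, -2.29, and -2.18, and Hif1a farthest to the right at 3.30.

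The VEGF receptors are the endothelial kinases most like Tek and Tie1. Kdr (VEGFR2) fell at 15 min (-0.79, SE 0.0271), 30 min (-0.99, SE 0.0276), and 4 h (-2.18, SE 0.0313), at the first 2 of which Tek did not pass; the difference between the genes was not tested. Flt1 (VEGFR1) was at 1885 CPM in PBS and 1790 at 4 h (-0.08, no call), and Flt4 (VEGFR3) rose at 4 h (0.99, SE 0.0339). Within each library Tek had 1.93 to 2.02 times the TPM of Kdr in PBS, 2.45 to 2.54 at 15 min, 2.69 to 2.82 at 30 min, and 1.46 to 1.58 at 4 h. Of the 10 VEGF ligands and receptors, 2 were higher at 4 h, Pgf (1.94) and Flt4, and 4 were lower, Kdr, Vegfd (-1.68), Vegfc (-1.51), and Nrp1 (-1.05). Of 7 tip cell genes, which mark sprouting endothelium, Kcne3 rose (2.55, SE 0.447), and Cxcr4 (-1.22) and Pdgfb (-0.95) fell. The rise of Kcne3 rested on few fragments, 6 to 13 in the PBS libraries and 16 to 39 at 4 h.

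Genes around Angptl4 were counted in 4 lists at 4 h. Of 6 lipoprotein lipase partners tested, 1 was higher, the endothelial lipase Lipg (3.71, SE 0.138), and 1 lower, Lmf1, a lipase maturation factor (-0.80), a share near that of all genes, and DESeq2 called 1 of the 6; Lpl itself was at 32.1 CPM in PBS and 44.5 at 4 h and did not pass. Of 13 PPAR receptors and targets, 3 were higher, Pdk4 (3.33), Fabp4 (3.11), and Plin2 (1.66), all of fatty acid handling, and 3 lower, among them the receptor Rxra (-1.36) and Cpt1a of fatty acid import into mitochondria (-0.86). Of 7 glucocorticoid targets, 6 were higher at 15 min, 7 at 30 min, and 5 at 4 h, where 3.31%, 3.78%, and 19.0% of all genes were. DESeq2 called 5, 6, and 5 of them. Zbtb16 was at 2.77, 2.23, and 2.40 and Fkbp5 at 1.94, 2.43, and 2.94. The 2 that did not pass at 4 h were Tsc22d3, at 1.89, 1.98, and 0.20 at the successive times, and Klf9, at 0.54 at 4 h. Of 9 hypoxia targets 4 were higher at 4 h, led by Adm, the vasodilator adrenomedullin (4.78, SE 0.120), Ldha (1.62), and Pgk1 (1.08), and 1 was lower, Slc2a1, the glucose transporter of the blood-brain barrier (-1.05), which was higher at 15 and 30 min (0.70 and 1.01). Of 7 receptors of angiopoietin-like proteins, 4 rose at 4 h, Pirb (3.35), Itga5, Itgb3, and Itgav (1.24). Markers of adipocytes, in which Angptl4 is known to be abundant, summed to 0.262 to 0.725 CPM in PBS and 0.751 to 1.13 at 4 h, with Adipoq, Lep, and Cfd at or near 0. Of the 5 hepatocyte markers only Ttr, which the choroid plexus also makes, passed the filter. The 5 summed to 9885 to 10300 CPM in PBS, 8883 to 9341 at 15 min, 13100 to 13430 at 30 min, and 16500 to 17360 at 4 h. In PBS and at 4 h these sums were above those of the 9 endothelial markers. Ttr passed as higher at 4 h (0.76). The part of choroid plexus RNA in the levels of the 7 genes was not tested. Neutrophil markers summed to 172 to 181 CPM at 4 h against 4.27 to 5.97 in PBS, while Ly6g, Elane, and Mpo stayed at means of 0.297, 0.0514, and 0.0964 CPM at 4 h; the part of such cells in the levels at 4 h was not tested. Of the other angiopoietin-like genes Angptl1, Angptl6, and Angptl7 were tested, and 0 of the 3 passed against PBS in edgeR at 4 h (1 at an unadjusted p below 0.05, 0 in DESeq2), with group means under 4 CPM.

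The genes whose levels over the 12 libraries were most like those of a member, by Pearson's r of log2 CPM over 16306 genes, were as follows. The 12 points fall into 4 groups and share the control libraries, so r mainly reflects the group means and is a description. For Tek they were Nxpe4 (r = 0.999, at 141 CPM in PBS and 93.3 at 30 min), Anp32a (0.999), and Crtap (0.999), and for Tie1 Vangl2 (0.995), Tbx1 (0.995), and Sgsh (0.993). For Angpt2 they were N4bp1 (0.998, 56.8 to 485 CPM), Gbp4 (0.998, 130 to 2842 CPM), and Trim26 (0.998). For Angptl4 they were Ywhaz, Tut7, and Tm4sf1 (0.999 each), the last at 402 CPM in PBS, 432 at 15 min, 529 at 30 min, and 1564 at 4 h. For Angpt1 they were Sdf4 (0.987), Lamc3 (0.983), and Ptgfrn (0.982), and for Angptl2 Mall (0.988), Crb2 (0.986), and Car14 (0.986). Angpt4, with a mean CPM under 1, was not compared.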

How the data were processed

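Groups were taken from the sample records. The estimated counts and TPM deposited by the authors are Salmon 1.2.1 output per transcript, not normalized between libraries; TPM was scaled by the authors for length and to a constant sum. The normalized signal per gene deposited by the authors was made with DESeq2 size factors and average transcript length factors. Of 140948 transcripts 139852 joined GENCODE M21 (GRCm38) by identifier, and those left out held 0.48% to 0.85% of fragments. Counts were summed to genes, rounded, and tested in edgeR 4.0.16 under R 4.3.3: TMM factors, filterByExpr (minimum count 10, total 15, share 0.7), 1 quasi-likelihood fit of all 12 libraries, and glmTreat against 1.5-fold (0.585 on the log2 scale) with Benjamini-Hochberg adjustment. The SE was obtained from the size of the log2 change and the root of its F statistic. The step was tested on simulated data. Library numbers did not pair libraries: in 18 same-number pairs deviations from group means correlated at -0.0598 to 0.0575. The records do not say that pools came from separate isolations, so p-values measure the spread between libraries.

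Alternatives were DESeq2 1.42.0, RLE factors, library size only, no filter, no fold limit, a transcript length offset, only the groups compared, a replicate block, limma 3.58.1 on log2 of the normalized signal plus 1 or 10, and leaving out each library. Members and lists were chosen with earlier results of these data known, so their counts are descriptions. The text names the 7 members, up to 3 higher and 3 lower called genes per list and comparison, the 3 VEGF receptors, genes overlapping a member, and the 3 genes most like each member (log2 of CPM plus 0.5, mean CPM of at least 1). The reference genes of the rule (Actb, Gapdh, and Rplp0) are not described. Xist, the Y-linked genes, further list genes, and the TPM ratios were named after their values were seen. Some list genes enter the counts of their lists but are not reported here by name.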

Additional observations from a re-analysis of the deposited data

Results flagged for a closer look

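Effects against PBS differed between times, by edgeR's 1.5-fold test of the later against the earlier time, in 6 cases. From 15 to 30 min Angpt4 went up by 2.10 and Angptl4 by 0.71 on the log2 scale, both calls that single libraries decide, as given with their values. From 30 min to 4 h Angpt2 went up by 3.10 and Angptl4 by 4.42, while Tek changed by -2.07 and Angptl2 by -1.29, which put Angptl2 above PBS at 30 min and below it at 4 h. These 4 calls held under each alternative and without each library.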

How the results depend on the processing

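Of 560 values of the 7 genes under alternatives, 510 kept direction and side of the threshold, 22 lost a call, 23 gained one, and 5 changed sign; causes were not tested. The changes of sign were in LPS 30 min against LPS 15 min, where Tie1 was at 3.7e-04 in DESeq2 and 1.6e-05 with RLE factors, and leaving out libraries gave -0.031 to 0.010 for Tie1 and -0.15 to 0.012 for Angpt2. Without a fold limit 6, 4, and 4 genes passed at 15 min, at 30 min, and from 15 to 30 min. In that last comparison 1 passed, Angpt4, and Angptl4 did not, with library size only, with only the groups compared, and with the length offset; there were 0 calls in DESeq2 and in limma with 1 or 10 added (2, 2, and 1 at an unadjusted p below 0.05), and 0 to 2 without single libraries. With the replicate block 1 passed, since Angptl4 did not; the block changed no other call. With library size only 2 passed at 30 min and 7 from 30 min to 4 h. At 4 h against PBS 4 passed in DESeq2, without Angpt4 and Angptl2, and 5 in limma with 10 added, without Angpt4. All 7 passed there with library size only, without the filter, without a fold limit, with only the groups compared, and with the length offset.

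Scaling by library size alone moved the median of all genes to -0.71 at 4 h, -0.18 at 30 min, -0.14 from 15 to 30 min, and -0.58 from 30 min to 4 h, and the share of calls that were higher to 18.2% (58.0% with TMM), 61.4% (82.6%), 37.2% (57.9%), and 21.7% (58.9%); from 15 to 30 min limma gave 69.8% and 70.0%. Tie1 then passed at 4 h (-1.30), where the median gene was at -0.71. Calls over all genes numbered 800, 877, and 891 at 15 min, at 30 min, and from 15 to 30 min, but 406, 531, and 443 in limma with 1 added and 385, 497, and 413 with 10. They numbered 6273 at 4 h and 5484 from 30 min to 4 h, but 10462 and 8848 by library size alone, and without a fold limit 7393, 7066, 13124, 7153, and 12498 in the order of the comparisons. Depth limits Angpt4, which rested on 5 to 56 fragments.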
